A study of Mus musculus with 2 samples.

Results

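The genes of the midbrain-hindbrain boundary organizer were examined site by site in maps of open chromatin from the embryonic mouse hindbrain. The 9 genes, Otx2, Gbx2, Fgf8, Wnt1, Pax2, Pax5, Pax8, En1 and En2, were chosen by name, out of 21938 protein-coding genes in all. All DNase-seq peaks and hotspots up to 50 kb from any annotated start of these genes were collected. The tissue was hindbrain of healthy B6NCrl mouse embryos at embryonic day 14.5, with males and females pooled. Per the labels there was 1 group, without another tissue, age or treatment, and its 2 biological replicates came from different tissue samples and different libraries, under the same donor (strain) record. DNase I cuts DNA where chromatin is open, so a peak marks a short hypersensitive site and a hotspot a wider stretch of frequent cutting. Every deposited peak was 150 bp wide and carried a whole-number score. Peaks of either library that overlapped by at least 1 bp were joined into 1 site, which is called shared when both libraries contributed a peak. Of 287586 sites on the assembled chromosomes, 222 lay within reach of the 9 genes. Of these, 89 were shared, 103 were found in replicate 1 alone and 30 in replicate 2 alone. In bulk tissue, fewer cells with an open site and less accessibility per cell cannot be told apart.

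The boundary organizer is a signalling centre at the junction of the embryonic midbrain and hindbrain. Otx2 in the forebrain and midbrain and Gbx2 in the anterior hindbrain repress each other and set its position. Fgf8 is secreted from the hindbrain side and Wnt1 from the midbrain side, and the transcription factors Pax2, Pax5, Pax8, En1 and En2 are needed in overlapping domains across the junction, from which the midbrain tectum and the cerebellum grow. By the age examined here the early boundary pattern is past, and several of the genes have other uses: Pax2 marks inhibitory interneuron precursors, Otx2 is active in choroid plexus, and Pax5 and Pax8 are best known from B cells and from thyroid and kidney.

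Replicate 1 held 263679 peaks and 231347 hotspots, and replicate 2 held 148804 peaks and 133205 hotspots. The median score was 47 in replicate 1 and 30 in replicate 2. What a score counts and how it was scaled are not given, and the files hold no read counts, so sequencing depth is unknown. Scores were therefore compared as percentiles within a library. Where a site is given a pair of scores, that of replicate 1 stands before that of replicate 2. The tissue label was set against marker genes. All 10 hindbrain markers, among them Hoxa2, Hoxb4 and Egr2, had a promoter peak in both libraries, against 4 of 9 forebrain markers, 5 of 8 midbrain markers and 1 of 5 B cell markers, and 64.6% of all protein-coding genes had a promoter site in both. The libraries also differed by region. The forebrain markers had 50 distal sites in replicate 1 alone and 58 in replicate 2 alone, while the midbrain markers had 76 and 6. At its promoter, the midbrain marker Pax7 had 2 peaks in replicate 1 and 0 in replicate 2. These values stand beside each difference between the libraries given here, and their part in those differences was not tested.

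The sequences of the strongest shared sites show what kind of DNA the results concern. For each gene the site with the highest mean score percentile is printed, leaving out untranslated regions, and further sites at Gbx2 and Fgf8 that also stood high in both libraries. All are read from GRCm38.p6 (mm10) on the plus strand, 5′ to 3′, and capitals mark matches on either strand to the motif named for that site. The motifs are the core of the CTCF consensus, ZIC (CAGCNGG), OTX (TAATCC), HOX-PBX (TGATNNAT), MEIS (TGACAG), an NFI core (TTGGCA) and a PAX paired-domain core (GCGTGAC).
Otx2, chr14:48709916-48710065, intron of Otx2os1, no match to any motif searched: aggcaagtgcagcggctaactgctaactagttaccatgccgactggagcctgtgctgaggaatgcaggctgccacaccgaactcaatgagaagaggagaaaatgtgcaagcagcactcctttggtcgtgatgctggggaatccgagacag
Gbx2, chr1:89943336-89943485, intergenic, CTCF then OTX: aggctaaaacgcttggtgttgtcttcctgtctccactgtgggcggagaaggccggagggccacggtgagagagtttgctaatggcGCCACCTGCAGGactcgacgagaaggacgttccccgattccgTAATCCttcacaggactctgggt
Gbx2, chr1:89968356-89968505, exon of Asb18, ZIC (the left and middle capitals) and PAX core (the right): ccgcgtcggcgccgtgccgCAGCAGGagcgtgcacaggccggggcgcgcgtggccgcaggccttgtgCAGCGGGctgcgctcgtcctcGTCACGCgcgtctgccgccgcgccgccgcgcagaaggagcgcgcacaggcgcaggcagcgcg
Fgf8, chr19:45747576-45747725, intergenic, CTCF in both runs of capitals: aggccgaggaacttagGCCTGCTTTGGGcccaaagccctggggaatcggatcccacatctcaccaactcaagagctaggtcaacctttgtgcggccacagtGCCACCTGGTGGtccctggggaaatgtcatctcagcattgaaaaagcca
Fgf8, chr19:45717596-45717745, intergenic, OTX: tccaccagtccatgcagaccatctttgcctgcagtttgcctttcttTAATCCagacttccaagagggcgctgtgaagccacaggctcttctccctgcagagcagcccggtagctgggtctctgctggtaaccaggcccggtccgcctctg
Wnt1, chr15:98805376-98805525, exon of Ddn, ZIC then CTCF: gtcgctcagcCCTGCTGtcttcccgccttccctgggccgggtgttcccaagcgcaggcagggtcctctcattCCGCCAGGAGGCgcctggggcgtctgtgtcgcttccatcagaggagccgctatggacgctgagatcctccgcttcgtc
Pax2, chr19:44754776-44754925, intergenic, CTCF: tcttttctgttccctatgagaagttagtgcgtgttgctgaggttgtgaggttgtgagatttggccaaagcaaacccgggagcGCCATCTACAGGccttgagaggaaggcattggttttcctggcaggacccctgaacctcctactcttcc
Pax5, chr4:44704496-44704645, exon of 5730488B01Rik, NFI core: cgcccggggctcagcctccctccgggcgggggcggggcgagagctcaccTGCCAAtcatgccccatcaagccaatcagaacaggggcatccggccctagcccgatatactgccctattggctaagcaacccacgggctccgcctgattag
Pax8, chr2:24521496-24521645, intergenic, HOX-PBX then ZIC: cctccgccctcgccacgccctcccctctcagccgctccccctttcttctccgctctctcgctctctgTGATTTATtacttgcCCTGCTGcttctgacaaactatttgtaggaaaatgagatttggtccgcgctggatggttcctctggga
En1, chr1:120586596-120586745, intergenic, no match to any motif searched: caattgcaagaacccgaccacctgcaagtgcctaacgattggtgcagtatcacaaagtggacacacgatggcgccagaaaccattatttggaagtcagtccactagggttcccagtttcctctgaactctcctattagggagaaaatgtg
En2, chr5:28165536-28165685, promoter, MEIS: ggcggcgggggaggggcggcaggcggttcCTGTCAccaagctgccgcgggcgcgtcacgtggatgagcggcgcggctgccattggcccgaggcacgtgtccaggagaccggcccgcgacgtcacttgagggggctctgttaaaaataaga

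A promoter peak, with its midpoint within 1 kb of a start site, was found at 8 of the 9 genes in replicate 1, where 69.9% of all protein-coding genes had one. In replicate 2 it was found at 5, where 65.7% of all genes had one. The same 5 genes, Otx2, Gbx2, Pax2, En1 and En2, had a promoter site shared by both libraries, against 64.6% of all genes. Wnt1, Pax5 and Pax8 had promoter peaks in replicate 1 and none in replicate 2, a state found at 4.89% of all genes. Fgf8 had none in either library, as did 29.4% of all genes. The highest promoter scores in replicate 1 were 125 at Pax2, 122 at En2, 116 at Gbx2 and 111 at En1, then 87 at Pax8, 63 at Otx2, 57 at Wnt1 and 49 at Pax5. In replicate 2 they were 71 at En2, 70 at Gbx2, 56 at Pax2, 51 at En1 and 35 at Otx2. The 4 genes that led in replicate 1 also led in replicate 2, in a different order. The 3 genes missing from replicate 2 had highest scores of 49 to 87 in replicate 1. Replicate 2 retained Otx2, but at a site that scored 45 in replicate 1, and the Otx2 site of score 63 was in replicate 1 alone. With a window of 2500 bp, chosen as an alternative, 8 genes had a shared promoter site and only Fgf8 lacked one. Among peaks at or above each library's median score, and when 50% of a peak had to overlap, the Otx2 promoter was no longer shared, and with a 500 bp window that of Pax2 was no longer shared.

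**Figure D1:**
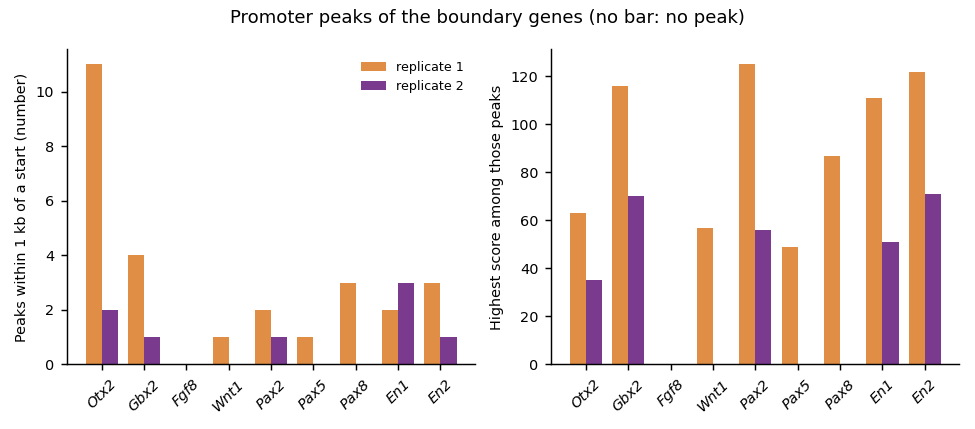
The left panel counts the peaks within 1 kb of a start site of each gene and the right panel gives the highest score among them, for replicate 1 (orange) and replicate 2 (purple). Otx2 had 11 promoter peaks in replicate 1 and 2 in replicate 2, while its highest score, 63, was below those of Gbx2, Pax2, Pax8, En1 and En2, and Fgf8 has no bar.

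In replicate 1 Otx2 had the most promoter peaks, 11 over its 5 annotated start sites. Gbx2 followed with 4 at a single start, then Pax8 and En2 with 3 each, and 15.0% of all protein-coding genes had at least 4. In replicate 2 En1 led with 3, Otx2 had 2, and Gbx2, Pax2 and En2 had 1 each. Nearest to the 1 kb limit were a Gbx2 site 929 bp from the start, which scored 70 in replicate 1 and counted as promoter, and an Otx2 site at 1043 bp, which scored 45 and counted as distal. RefSeq promoter sequences of 300 bases (GRCm38.p6) were available for 7 of the 9 genes, with 12 promoters among them. Of these, 11 were above the median CpG observed/expected ratio of 0.384 of all 32851 RefSeq promoters. The ratio was 0.948 at En1, 0.882 at Pax5, 0.861 at Gbx2 and 0.699 at Wnt1, and 0.288 at Pax8. At Otx2 and Pax2, which had several RefSeq promoters, it ran from 0.463 to 0.891 and from 0.410 to 0.812. Of the genes with promoter peaks in replicate 1 alone, Pax5 and Wnt1 were above the median ratio and Pax8 was below it. The part of the CpG ratio in the promoter calls was not tested.

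Away from start sites the genes had more shared sites than most genes. A distal site lay over 1 kb from every start of any gene and within 50 kb of a start of the named gene. The 9 genes had 160 distal sites, of which 67 were shared, 70 were in replicate 1 alone and 23 in replicate 2 alone. Shared sites made up 41.9% of them, against 33.8% of all distal sites genome-wide. The share found in replicate 1 alone was 43.8% against 56.6%, and in replicate 2 alone 14.4% against 9.62%. Per gene, the shared distal sites numbered 10 at Gbx2, 9 each at Wnt1, Pax8 and En1, 8 at En2, 6 each at Otx2, Fgf8 and Pax2, and 4 at Pax5. The median was 8, against 3 over all protein-coding genes, and each of the 9 genes was above that 3. Gbx2 stood at percentile 92.8 of all genes by this count and Pax5, the lowest of the 9, at 58.0. Most other gene lists counted here also had medians above 3, with 9 for Wnt1 partners and 8 for further boundary transcription factors. Hindbrain markers had a median of 7.5, and B cell and thyroid markers 5 each. The lowest medians were 2 for inner ear and kidney markers and 3 for meninges and mesenchyme. At 50 kb, the outermost site counted was a replicate 2 site of score 14 at 49411 bp from Pax8, and the nearest one beyond was a replicate 1 site of score 63 at 50169 bp from Gbx2.

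**Figure D2:**
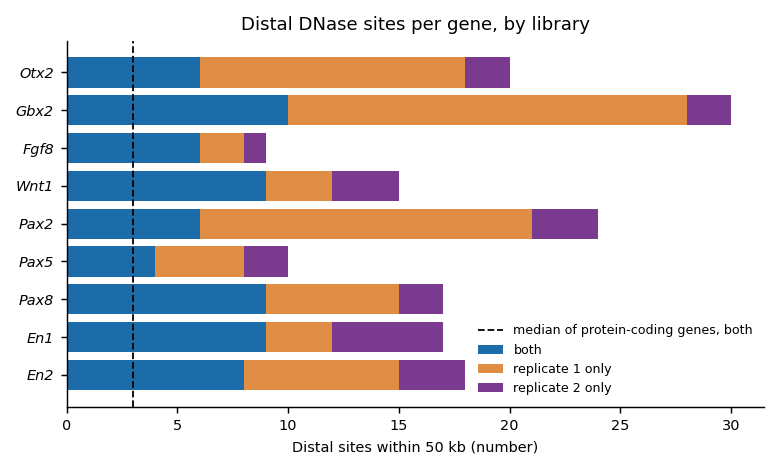
Distal sites within 50 kb of each gene, stacked by the library or libraries that held them, with the median number of shared sites over all protein-coding genes as a dashed line at 3. All 9 blue bars pass the line, and the orange bars (replicate 1 alone) are longest at Gbx2 with 18, Pax2 with 15 and Otx2 with 12.

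Agreement between the libraries differed from gene to gene. At Fgf8, 6 of 9 distal sites were shared (66.7%), at Wnt1 9 of 15 (60.0%), and at En1 and Pax8 9 of 17 (52.9%). At the other end, 6 of 24 were shared at Pax2 (25%), 6 of 20 at Otx2 (30.0%) and 10 of 30 at Gbx2 (33.3%). The share over all distal sites genome-wide was 33.8%. Otx2, Gbx2 and Pax2 also held 45 of the 70 sites found in replicate 1 alone. These were 12 of 20 distal sites at Otx2, 18 of 30 at Gbx2 and 15 of 24 at Pax2, against 56.6% genome-wide. En1 was the one gene of the 9 with more distal sites in replicate 2 alone (5) than in replicate 1 alone (3), and at Wnt1 the numbers were equal at 3.

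**Figure D3:**
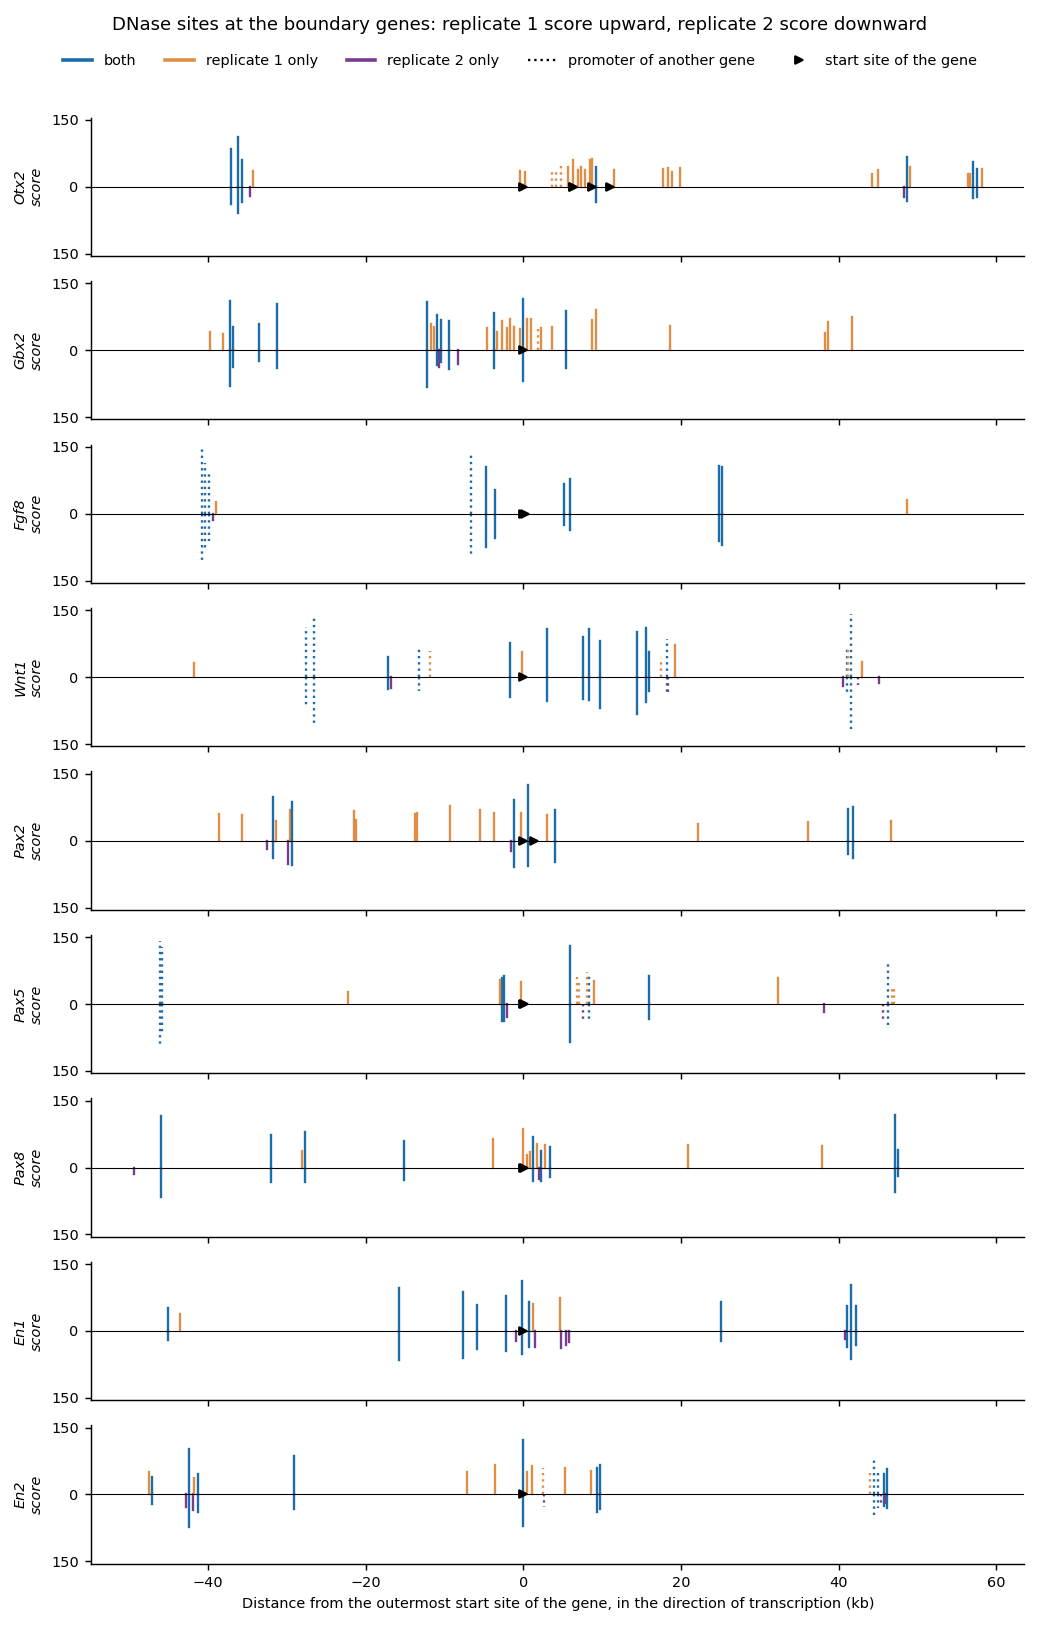
Each vertical line is a site, placed by its distance from the outermost start of the gene in the direction of transcription, with the replicate 1 score upward and the replicate 2 score downward on the same scale. Shared sites (blue) stand on both sides of the axis. Fgf8 shows tall shared sites on both sides of a start with no site, while Otx2 shows a row of low replicate 1 sites (orange) across its start sites and its tallest shared site far upstream.

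Otx2, the homeobox selector of forebrain and midbrain, lies on the minus strand of chromosome 14 (48657677 to 48673819). Its 10 promoter sites scored 33 to 63 in replicate 1, and only chr14:48664536-48664685, 496 bp downstream of a start, was shared, with scores of 45 and 35. The strongest promoter site, 56 bp from a start, scored 63 in replicate 1 (percentile 69.4) and had no counterpart in replicate 2. None of the Otx2 promoter sites came near the top of a library. The distal sites were different. A cluster 35711 to 37131 bp upstream, in an intron of the opposite-strand transcript Otx2os1, held 3 shared sites. Its strongest, printed above, scored 111 in replicate 1 and 59 in replicate 2, percentiles 93.9 and 82.5. The neighbours scored 84 and 39, and 60 and 35. On the far side, 37702 bp downstream, a shared intergenic site scored 66 and 31. No shared distal site lay within 20 kb of an Otx2 start. Among unshared distal sites the highest score in replicate 1 was 45, at both 1043 and 38082 bp downstream, and in replicate 2 it was 22, at 37322 bp. Otx2 is itself one of the midbrain markers, of which Foxa2 had no promoter peak in either library. In that list 7 of 8 promoters were called in replicate 1 and 5 of 8 in replicate 2, against 69.9% and 65.7% of all protein-coding genes.

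Gbx2, the homeobox selector of the anterior hindbrain, lies on the minus strand of chromosome 1 (89927956 to 89931179). Its promoter site, chr1:89931176-89931325, scored 116 and 70, percentiles 94.9 and 87.7. Another 3 promoter sites, scoring 48 to 70, were found in replicate 1 alone. Of its 10 shared distal sites, 9 lay upstream. They fell into a run of 4 at 9391 to 12231 bp, a group of 4 at 31251 to 37251 bp inside Asb18, a neighbouring ankyrin-repeat gene, and 1 at 3671 bp. In each of the larger groups 1 site reached percentile 90 in both libraries. The intergenic site at 12231 bp scored 109 and 82, and the Asb18 exon site at 37251 bp scored 110 and 81. The latter had 80% G and C, the highest among the printed sites. A site between them did not keep its rank: chr1:89962356-89962505 scored 103 in replicate 1 (percentile 91.8) and 39 in replicate 2 (percentile 66.2). The strongest site of replicate 1 alone, chr1:89921876-89922025 at 9229 bp downstream, scored 90 (percentile 87.0), above 7 of the 10 shared distal sites in that library. In replicate 2 alone the highest was 37, at 10651 bp upstream.

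Fgf8, the secreted signal of the organizer, lies on the minus strand of chromosome 19 (45736798 to 45742915). No peak and no hotspot of either library came within 1 kb of its 5 start sites. Its distal sites were nevertheless among the strongest of the 9 genes. The median percentile of its 6 shared distal sites was 86.1 in replicate 1 and 81.9 in replicate 2, the latter the highest of the 9. An intergenic site 4735 bp upstream, chr19:45747576-45747725, scored 104 and 75. A pair 24594 and 25014 bp downstream, past the end of the gene, scored 107 and 62, and 104 and 70. These 3 sites lay at percentiles 92.1 to 92.9 in replicate 1 and 84.1 to 89.6 in replicate 2. Inside the gene, an exon site at 5634 bp scored 77 and 37 and an intron site at 4954 bp scored 66 and 25. The remaining shared site, 3615 bp upstream, scored 53 in replicate 1 and 54 in replicate 2. It stood at percentile 58.4 in replicate 1 and 79.6 in replicate 2, unlike most of the sites, which ranked lower in replicate 2. Unshared distal sites were few and low, with 31 the highest in replicate 1 and 13 the highest in replicate 2. The promoters of Fgf8's neighbours were open in both libraries: a site at Npm3, a nucleoplasmin-family gene, scored 131 and 91, and one at Mgea5, which encodes the enzyme that removes O-GlcNAc, scored 145 and 111.

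Wnt1, the secreted signal of the midbrain side, lies on the plus strand of chromosome 15 (98789857 to 98793837). Its promoter peak, 187 bp upstream of the start, scored 57 in replicate 1 and had no counterpart in replicate 2. Shared distal sites lay mainly downstream, 7 of 9. The site at 14393 bp, in an exon of Ddn, a gene for a postsynaptic protein, scored 102 and 82 and reached percentile 90 in both libraries (91.5 and 91.9). The next by mean percentile, also in a Ddn exon, scored 110 and 55. A site in a Wnt1 exon at 2993 bp scored 108 and 54. Between the end of Wnt1 and Ddn, intergenic sites at 7533, 8333 and 9733 bp scored 89 and 50, 108 and 52, and 81 and 69. Upstream, the site at 1727 bp scored 77 and 44, and an exon site of the neighbouring Wnt gene Wnt10b scored 46 and 26. The median percentile of the 9 sites was 86.5 in replicate 1, the highest of the 9 genes, and 78.3 in replicate 2. The locus is gene-dense. Promoters of other genes within reach held 11 sites, led by Prkag1 with 142 and 121 and Arf3 with 138 and 110, and when only sites nearest to Wnt1 were kept, 4 of the 9 shared distal sites remained. The unshared maxima were 73 in replicate 1, in an intron of B130046B21Rik, and 24 in replicate 2.

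Pax2, a paired-box factor of the boundary that later marks inhibitory interneuron precursors of cerebellum and dorsal hindbrain, lies on the plus strand of chromosome 19 (44756045 to 44837871). Its shared promoter site, chr19:44756516-44756665, scored 125 in replicate 1, the highest promoter score of the 9 genes there, and 56 in replicate 2. The percentiles were 96.3 and 80.8. A second promoter site, 335 bp upstream, scored 63 in replicate 1 alone. The leading distal site lay just outside the promoter window at 1195 bp upstream and scored 92 and 59. Further upstream, sites at 29335 and 31795 bp scored 86 and 54, and 97 and 40. Inside the gene, sites at 2636, 39876 and 40476 bp scored 68 and 49, 71 and 30, and 75 and 40. Pax2 had 15 distal sites in replicate 1 alone, scoring 38 to 77. Beside a shared site at 29335 bp upstream, replicate 1 had an unshared peak of score 68 at 29615 bp. Replicate 2 had one of score 52 at 29835 bp, the highest unshared score of replicate 2 among the 9 genes. The hotspots that held these unshared peaks overlapped between the libraries. The other interneuron-precursor markers were called at their promoters in both libraries as well, 7 of 7 with Pax2 counted, against 64.6% of all genes. This list had 68 shared distal sites, 117 in replicate 1 alone and 14 in replicate 2 alone, where the genome-wide shares were 33.8%, 56.6% and 9.62%.

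Pax5, the paired-box factor of the boundary that also serves as the B cell identity factor, lies on the minus strand of chromosome 4 (44524757 to 44710487). A single promoter peak, 263 bp upstream, scored 49 in replicate 1, close to that library's median, and replicate 2 had none. One intragenic site stood out. The site chr4:44704496-44704645, 5838 bp downstream of a Pax5 start and in an exon of the transcript 5730488B01Rik, scored 130 and 85. Its percentiles of 97.1 and 92.7 gave the highest mean percentile of any promoter or distal site of the 9 genes. Upstream, a pair at 2483 and 2703 bp scored 64 and 39, and 58 and 37, and downstream, an intron site at 15838 bp scored 63 and 33. With 4 shared distal sites, Pax5 had the fewest of the 9 genes. Only 1 of 5 B cell markers, Ebf1, had a promoter peak in either library, and Cd79a, Cd79b and Blk were among those with none. Of all protein-coding genes, 69.9% had a promoter peak in replicate 1, 65.7% in replicate 2 and 29.4% in neither. Other genes' promoters within reach held 11 sites, led by Zcchc7 with 141 and 97.

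Pax8, the paired-box factor shared with inner ear, kidney and thyroid, lies on the minus strand of chromosome 2 (24420560 to 24475599). A peak 51 bp upstream of its start scored 87 in replicate 1 (percentile 85.5), the highest score among the promoter peaks that replicate 2 lacked. The other promoter peaks scored 34 and 28, also in replicate 1 alone. Of the shared distal sites the strongest lay at the edges of the window. The intergenic site 45971 bp upstream scored 116 and 67, and an intron site 47134 bp downstream scored 117 and 56. Closer in, the intron sites at 1234, 2254 and 3294 bp scored 69 and 30, 36 and 30, and 46 and 21. The upstream intergenic sites at 15151, 27711 and 31951 bp scored 60 and 28, 79 and 32, and 72 and 33. The median percentile of the 9 sites was 74.4 in replicate 1 and 50.9 in replicate 2, the lowest replicate 2 median of the 9 genes. Of the 9, 7 had a replicate 2 score below the genome's median for distal sites of like replicate 1 score. Thyroid and inner ear or kidney markers were mostly without promoter peaks: Tg, Nkx2-1, Wt1, Cdh16 and Slc12a1 had none in either library.

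En1, an Engrailed homeobox gene needed for midbrain and cerebellum, lies on the plus strand of chromosome 1 (120602418 to 120607992). Its promoter held 2 shared sites, at 128 bp upstream (111 and 51) and 712 bp downstream (64 and 36), and a replicate 2 site 908 bp upstream that scored 23. It was the one gene of the 9 with more promoter peaks in replicate 2 than in replicate 1. The leading distal sites were 15748 bp upstream (97 and 66), 41632 bp downstream in an intron of 2610027F03Rik (102 and 62) and 7648 bp upstream (88 and 60). Weaker shared sites followed at 2128 bp upstream with 78 and 45, and at 5828 bp upstream with 58 and 41. At 7 of the 9 shared distal sites the replicate 2 score was above the genome's median for like replicate 1 scores. At the end of the gene, replicate 1 had a peak of score 74 at 4612 bp and replicate 2 a peak of score 39 at 4832 bp. These peaks lay in the same exon without overlap, but the hotspots that held them overlapped between the libraries.

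En2, the second Engrailed gene, lies on the plus strand of chromosome 5 (28165694 to 28172166). Its promoter site, printed above, scored 122 and 71 and stood at percentiles 95.9 and 88.1, the highest mean percentile among the promoter sites of the 9 genes. Another promoter peak, 456 bp downstream, scored 50 in replicate 1 alone. The strongest distal site, 42444 bp upstream, scored 101 and 72. The other shared distal sites were lower, from 40 to 87 in replicate 1 and from 21 to 40 in replicate 2. The site at 29024 bp upstream scored 87 and 33 and those at 9396 and 9756 bp downstream scored 59 and 39, and 66 and 32. At its far end the window reached Cnpy1, an FGF-signalling modulator of the boundary in fish, with shared promoter sites of 84 and 54, and 50 and 31, and intron sites of 58 and 30, and 46 and 25. The unshared maxima were 66 in replicate 1, at 3584 bp upstream, and 35 in replicate 2, at 41904 bp upstream.

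Scores of shared sites ran together between the libraries. Over the 73 shared promoter and distal sites the Spearman correlation was 0.791 and the Pearson correlation 0.811, and over the 67 distal sites 0.785 and 0.809. The genome-wide Spearman correlation was 0.860 over all 109577 shared sites and 0.797 over the 79526 shared distal sites. These are descriptions, since the sites share the same pair of libraries. The median score of the shared distal sites was 72 in replicate 1 (range 36 to 130) and 39 in replicate 2 (range 20 to 85), against 68 and 32 for all shared distal sites. Sites found in 1 library alone had medians of 50.5 and 24. A percentile of 90 or more in both libraries was reached by 4 of the 67 sites (5.97%), against 4.02% genome-wide: those at Gbx2 12231 and 37251 bp upstream, at Wnt1 14393 bp downstream and at Pax5 5838 bp downstream. A higher percentile in replicate 2 than in replicate 1 was found at 9 of the 67 (13.4%), against 16.7%. When each site was set beside the genome's median replicate 2 score for its 10-point class of replicate 1 score, 39 of the 67 were above, 26 below and 2 equal. The genes did not line up the same way. Above the median were 5 of 6 sites at Fgf8, 7 of 9 at En1, 6 of 8 at En2, 3 of 4 at Pax5, 6 of 9 at Wnt1 and 4 of 6 at Pax2, and 4 of 10 at Gbx2, 2 of 6 at Otx2 and 2 of 9 at Pax8.

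**Figure D4:**
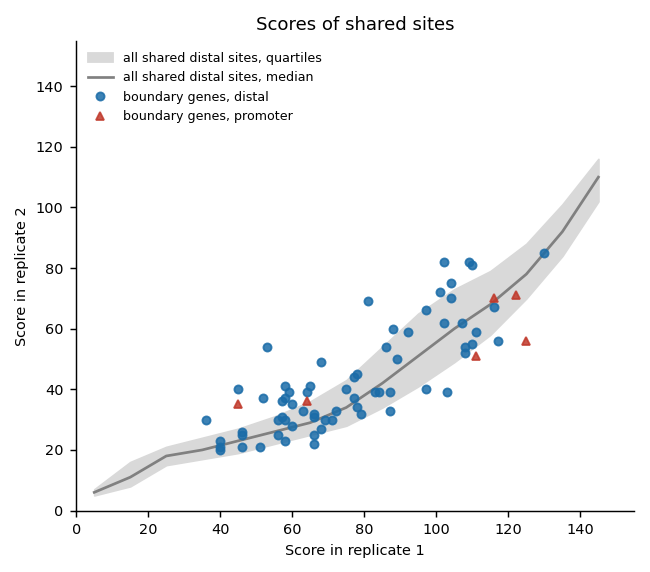
Score in replicate 1 (x) against score in replicate 2 (y) for the 67 shared distal sites (circles) and the 6 shared promoter sites (triangles) of the 9 genes, over the median and quartiles of replicate 2 scores of all shared distal sites. The member sites follow the genome's curve, with 39 of the 67 circles above the median for their class and 26 below it.

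Counted peak by peak, 67 of the 143 distal replicate 1 peaks of the 9 genes overlapped a replicate 2 peak, a share of 46.9% (95% Wilson interval 38.9% to 55.0%), and genome-wide the share was 37.2%. For replicate 2 it was 70 of 95, or 73.7% (64.0% to 81.5%), and genome-wide 76.5%. The intervals cover counting error only, since peaks of 1 gene are not independent and depth is unknown. The replicate 1 share was above the genome-wide value and the replicate 2 interval held it.

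By position, 37 of the 67 shared distal sites were intergenic, 22 intronic (10 in the named gene itself) and 8 exonic. They were spread evenly around the starts, 34 upstream and 33 downstream, but not at each gene: 9 of 10 lay upstream at Gbx2 and 7 of 9 downstream at Wnt1. The median distance to the start was 15953 bp, and 25 sites lay within 10 kb.

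The deposited hotspots gave the wider context. A hotspot came within 1 kb of a start at 8 of the 9 genes in replicate 1, against 70.5% of all genes, and at 5 in replicate 2, against 66.1%, the same genes as by peaks. The files give each hotspot a −log10 q-value that runs from 1.3 to 6 or equals a cap of 100. At En2 the hotspot over the start was 694 bp long in replicate 1 and 745 bp in replicate 2, both at the cap. At En1 it was 496 bp at the cap in replicate 1 and 503 bp with 4.85 in replicate 2, and at Gbx2 652 bp at the cap and 378 bp with 5.52. Otx2 had 10 promoter hotspots in replicate 1, the longest 1244 bp with a value of 6, and 2 in replicate 2, the longer one 184 bp with 1.65. The promoter hotspots of Wnt1 (237 bp, 3.65) and Pax5 (123 bp, 1.92) in replicate 1 were weak, while that over the Pax8 start (345 bp) was at the cap. A second Pax8 hotspot of 1126 bp at the cap reached from the intron into the 1 kb window and was matched by a replicate 2 hotspot beyond the window, so that counting hotspots shared by overlap added Pax8 to the genes called. In all, 52 of the 174 replicate 1 hotspots and 26 of the 116 replicate 2 hotspots were at the cap. Both upstream Fgf8 sites and the downstream pair lay in capped hotspots in both libraries.

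Motif searches covered the 150 bp of each site on both strands, and a match is only a description of the letters. The ZIC motif (CAGCNGG) was in 17 of the 67 shared distal sites (25.4%), at 8 of the 9 genes and not at Fgf8, against 20.3% of all shared distal sites. The CTCF motif was in 11 (16.4%), against 15.6%, and 4 of the 11 lay at Wnt1, 2 each at Fgf8 and Pax2, and 1 each at Gbx2, En1 and En2. The HOX-PBX motif was in 8 (11.9%), against 7.77%, and 4 of the 8 lay at Gbx2. The OTX motif was in 5 (7.46%), against 4.23%, at 1 site each of Otx2, Gbx2, Fgf8, Wnt1 and Pax2, which include the printed Gbx2 and Fgf8 sites. The homeodomain core TAATTA was in 4 (5.97%), against 6.87%, of which 3 lay at En1 and 1 at Pax8. The PAX core GCGTGAC was in 1, the printed Asb18 exon site at Gbx2 (1.49%), against 0.560%. Smaller shares than genome-wide held the E-boxes CAGATG (4, 5.97% against 17.8%) and CAGCTG (7, 10.4% against 16.7%), MEIS (6, 8.96% against 14.4%), the NFI core TTGGCA (8, 11.9% against 16.3%) and SOX AACAAT (3, 4.48% against 7.24%). The TCF/LEF motifs CTTTGAT and CTTTGAA were in 2 and 1 (2.99% against 2.19%, and 1.49% against 3.3%), the former at En1 and En2. ETS AGGAAGT was in 2 (2.99% against 3.20%), the POU octamer and the RFX motif were in 1 each (1.49%, against 1.79% and 2.23%), and the full NFI palindrome, the longer ETS motif CCGGAAGT and REST were in 0, against 0.259%, 0.229% and 0.376%. The median G and C content was 55.3% in the shared distal sites of the 9 genes and 50% in all shared distal sites, and its part in these shares was not tested. A CAGCTG match followed by G is also a ZIC match.

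Other genes of the FGF pathway were counted in the same way. Of 17 genes for FGF signals, receptors, targets and feedback inhibitors, 16 had a promoter site in both libraries, where 64.6% of all protein-coding genes had one, and the exception was Fgf17, a ligand close to Fgf8, with 0 peaks in either. The receptors Fgfr1, Fgfr2 and Fgfr3 had 2, 9 and 4 promoter peaks in replicate 1 and 2, 8 and 5 in replicate 2. The feedback inhibitors Spry1, Spry2, Spry4 and Dusp6 had 3 or 4 in replicate 1 and 3 to 5 in replicate 2. By shared distal sites Fgf15 and Fgfr2 led with 12 each, then Fgfr1 with 11, and Flrt3 had the fewest with 4, followed by Fgf17, Spry1 and Etv5 with 5 each. The median was 6, equal to the count at Fgf8.

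Among partners of Wnt1, 9 of 11 matched genes had a promoter site in both libraries, against the same 64.6%, and the ligands Wnt3a and Wnt8b had none in either, as 29.4% of all genes did. Wnt3a nevertheless had 12 shared distal sites, as many as the feedback inhibitor Nkd1, and the nuclear effector Tcf7l2 led with 13. The co-receptor Lrp6 had 2 and the receptor Fzd3 had 4.

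Of 19 further transcription factor genes of the boundary and its flanks, 17 had a promoter peak in replicate 1, 15 in replicate 2, and 14 a shared promoter site, against 69.9%, 65.7% and 64.6% of all genes. Foxa2, a floor plate factor, had none in either. Sp8, Pax7 and Nkx2-2 had promoter peaks in replicate 1 alone, as Wnt1, Pax5 and Pax8 did. The most shared distal sites were at Pou3f2 with 26, Zic1 with 20 and Irx2 and Meis2 with 17 each, and the fewest at Sp8 with 2 and Foxa2 with 3. Lmx1a, a roof plate factor, had 4 shared distal sites, 23 in replicate 1 alone and 2 in replicate 2 alone.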

How the data were processed

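DNase-seq was measured in 2 libraries of embryonic hindbrain. The authors made peaks and hotspots for each replicate separately on mm10, per the descriptive text files in the deposit. The sources used here do not give the aligner, the caller or their settings. Each deposited peak carries a score of unknown scaling, and each deposited hotspot a −log10 q-value. The files hold no read counts, so depth is unknown and precision rests on counts of peaks alone. All other values were computed with Python 3.11.15, numpy 2.4.6, pandas 2.3.3, scipy 1.17.1 and samtools 1.23.1 (sequence index), and figures with matplotlib 3.10.9.

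Peaks on unplaced contigs and the mitochondrial genome were left out, 253 in replicate 1 and 303 in replicate 2. A site is a set of peaks of either library joined by at least 1 bp of overlap, placed by its strongest replicate 1 peak. A promoter site has its midpoint within 1 kb of a start of the named gene in the GENCODE M21 basic set. A distal site lies over 1 kb from every start and within 50 kb of the gene, and sites in other genes' promoters were kept apart. Distances run from the nearest start of the named gene to the peak midpoint. Percentiles are mid-ranks among a library's peaks. Shares carry 95% Wilson intervals. With 1 group, no comparison between conditions exists and no p-value was computed, and the replicates describe the spread between these tissue samples. The site joining was tested on simulated peaks. The 9 genes, the 14 gene lists and the motifs were chosen with earlier results of these data known. Among list genes, those named are the 3 highest and 2 lowest by shared distal sites, those with no promoter peak in either library, and others with their values. The remaining list genes enter the counts and are not named, and some are not reported here. Named member sites are the promoter sites (at Otx2 and Gbx2 partly as a range), the strongest 3 shared distal sites, the highest site of each library alone and those high in both libraries.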

Additional observations from a re-analysis of the deposited data

How the results depend on the processing

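The alternatives were other promoter and distal windows, hotspots in place of peaks, a stricter overlap, stronger peaks, nearest-gene assignment and each library alone. Of 121 values, 83 stayed close to those reported and 38 moved. The number of genes with a promoter site in both libraries went from 5 to 8 with a 2500 bp window, and ran from 5 to 8 with a single library. The 67 distal shared sites became 35 within 20 kb and 122 within 100 kb, and a single library gave 95 to 143. Their median per gene, 8, became 4 within 20 kb and 5 among peaks at or above the median score, and ran from 11 to 15 with a single library. The overlap share of replicate 1 distal peaks went from 46.9% to 38.5% when 50% of a peak had to overlap and to 57.8% among stronger peaks. That of replicate 2 went from 73.7% to 60.0% and 88.9%. The score correlation stayed between 0.768 and 0.811. A peak missing from a library may lie below its threshold, and with no depth given, absence cannot be set against a detection limit.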

Other observations

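Marker genes of neighbouring and other cell types were counted in the same way. Over all protein-coding genes, 69.9% had a promoter peak in replicate 1 and 65.7% in replicate 2, and the median was 3 shared distal sites. Of 8 granule cell precursor genes, the excitatory lineage of the cerebellum, 8 had a promoter peak in replicate 1 and 7 in replicate 2, with a median of 9.5 shared distal sites. Of 6 choroid plexus genes, 4 had a promoter peak in replicate 1 and 2 in replicate 2: Aqp1 and Kl in both libraries, Clic6 in replicate 1 alone, and Folr1 and Kcne2 in neither. At Ttr the promoter site was shared, but the midpoint of its replicate 2 peak lay outside the 1 kb window. Of 6 genes of meninges and mesenchyme, 6 and 5 had one, and of 3 blood genes, 1 (Klf1) had one in replicate 1 and 0 in replicate 2. Of 5 inner ear and kidney genes, 2 and 1 had one, and of 4 thyroid genes, 1 in each library (Foxe1).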
